A study of Mus musculus with 12 samples.

Results

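Condensin II encircles and compacts chromatin before cells divide, and Ncaph2 encodes the kleisin subunit that closes its ring. The labels write the gene as Caph2. Thymocytes that carry both CD4 and CD8 divide in bursts and then rest, and CD71, the transferrin receptor that brings iron into growing cells, is displayed by the dividing ones. The quantity described here is the difference between 2 genotype effects: the I15N minus wild-type difference in CD71+ cells minus the same difference in CD71- cells. It answers which transcripts respond to the Ncaph2 mutation differently in proliferating and in resting thymocytes, and it is called the interaction below, on the log2 scale. A positive interaction means that I15N minus wild type was the higher of the pair in CD71+ cells. It was estimated for every gene symbol detected on at least 3 of the 12 arrays, which were 8247 of 18138.

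The 4 groups had 3 arrays each: Caph2nes/nes (I15N) CD71+ cells, Caph2+/+ (WT) CD71+ cells, I15N CD71- cells and WT CD71- cells. All came from thymus of C57BL6/J mice aged 8 to 12 weeks, with males and females mixed in equal parts, and were sorted as CD4+CD8+ cells from a low forward scatter gate, which takes small cells. The mutation is present in all cells of the animal, so the arrays do not separate an effect within thymocytes from one of their surroundings. Separate animals are not stated for the 3 arrays of a group, and p-values measure the spread among these samples only, which could be technical. In these bulk samples, fewer cells of a type and less RNA per cell cannot be told apart.

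Mean signal per array lay between 95.1 and 203, the lowest on a WT CD71- array, and 5893 to 7415 symbols were detected on an array. Tfrc, the gene of CD71, averaged 8.00 ± 0.30 in I15N CD71+ cells, 7.95 ± 0.20 in WT CD71+ cells, 6.70 ± 0.44 in I15N CD71- cells and 6.80 ± 0.45 in WT CD71- cells (normalized log2 signal, SD, n = 3 each). The subsets therefore differed in Tfrc as sorted, and its interaction was 0.15 with a 95% confidence interval of -0.73 to 1.04 (limma adjusted p = 0.981). Ncaph2 itself averaged 7.72 ± 0.18 in I15N CD71+ cells, 7.76 ± 0.22 in WT CD71+ cells, 6.42 ± 0.14 in I15N CD71- cells and 6.53 ± 0.27 in WT CD71- cells. Its interaction was 0.08 (interval -0.44 to 0.59, limma adjusted p = 0.988), and since I15N is a missense change the transcript level does not check the genotype. Cd4 and Cd8b1 were detected on all 12 arrays, with interactions of -0.14 and -0.17. Cd8a was detected on 0 arrays, as were Itgax of dendritic cells, Hbb-b1 of red cells, Krt5 of epithelium and Col1a1 of fibroblasts.

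Few transcripts passed the test for a different response to the mutation in CD71+ and CD71- cells. One gene of 8247 passed an adjusted p of 0.05 for the interaction (0.0121% of genes tested, limma with Benjamini-Hochberg adjustment), and the next smallest adjusted p was 0.239. At an unadjusted p under 0.05 there were 466 genes (5.65%), 247 with a positive interaction (3.00%) and 219 with a negative one (2.66%). The p-values were spread nearly evenly, with 466 genes in the lowest of 20 bins, where an even spread would put 412.35. The median interaction over all genes was 0.0015, with quartiles of -0.054 and 0.062. Its median standard error was 0.088, against 0.062 for a genotype difference within a subset. With 3 arrays per group, a gene that did not pass is not shown to respond alike in both subsets. Within each subset, 35 genes differed between genotypes at an adjusted p under 0.05 (0.424% in each), 24 higher and 11 lower in I15N CD71+ cells and 23 higher and 12 lower in I15N CD71- cells. Genes named below other than the one past the threshold are the ones with the smallest p in each direction or in each gene list. They are described by their values and are not calls.

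**Figure D1:**
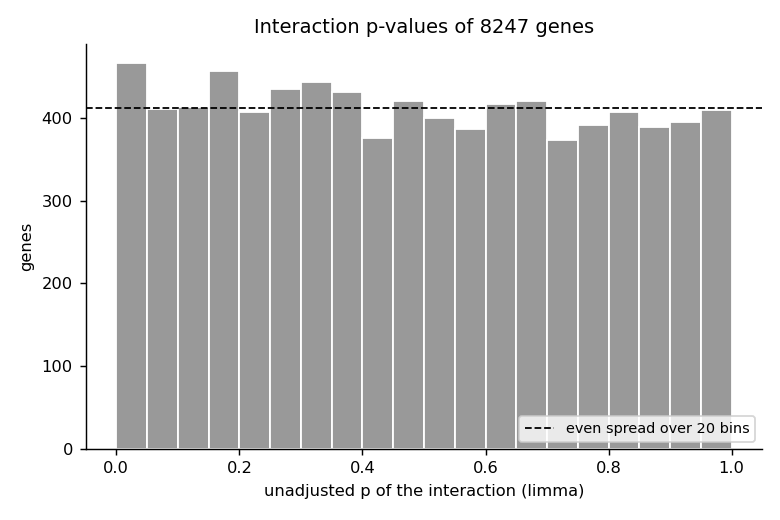
Number of genes (y axis) in 20 equal bins of the unadjusted limma p of the interaction (x axis), with a dashed line at the 412.35 genes an even spread would give. The lowest bin held 466 genes and the other bins 373 to 457.

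LOC100044190 was the gene that passed. Its symbol has no match in the reference annotation, so no role or position is given to it, and it is named here after its values were seen. It read 7.96, 7.91 and 7.94 in I15N CD71+ cells against 6.33, 6.21 and 6.45 in WT CD71+ cells, and 7.01, 6.87 and 6.77 in I15N CD71- cells against 6.41, 6.47 and 6.25 in WT CD71- cells. I15N arrays stood above WT arrays in both subsets without overlap, and the gap was wider in CD71+ cells. The I15N minus WT difference was 1.60 in CD71+ cells and 0.51 in CD71- cells, each past the test (limma adjusted p = 5.5e-05 and 0.035). The interaction was 1.09 (interval 0.84 to 1.35, limma adjusted p = 0.0325). The call was lost in 8 of the 12 fits that left out 1 array, with an adjusted p of up to 0.192, and the value there was 1.03 to 1.16. It was also lost in 7 of 9 other alternatives, with an adjusted p of up to 0.393.

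**Figure D2:**
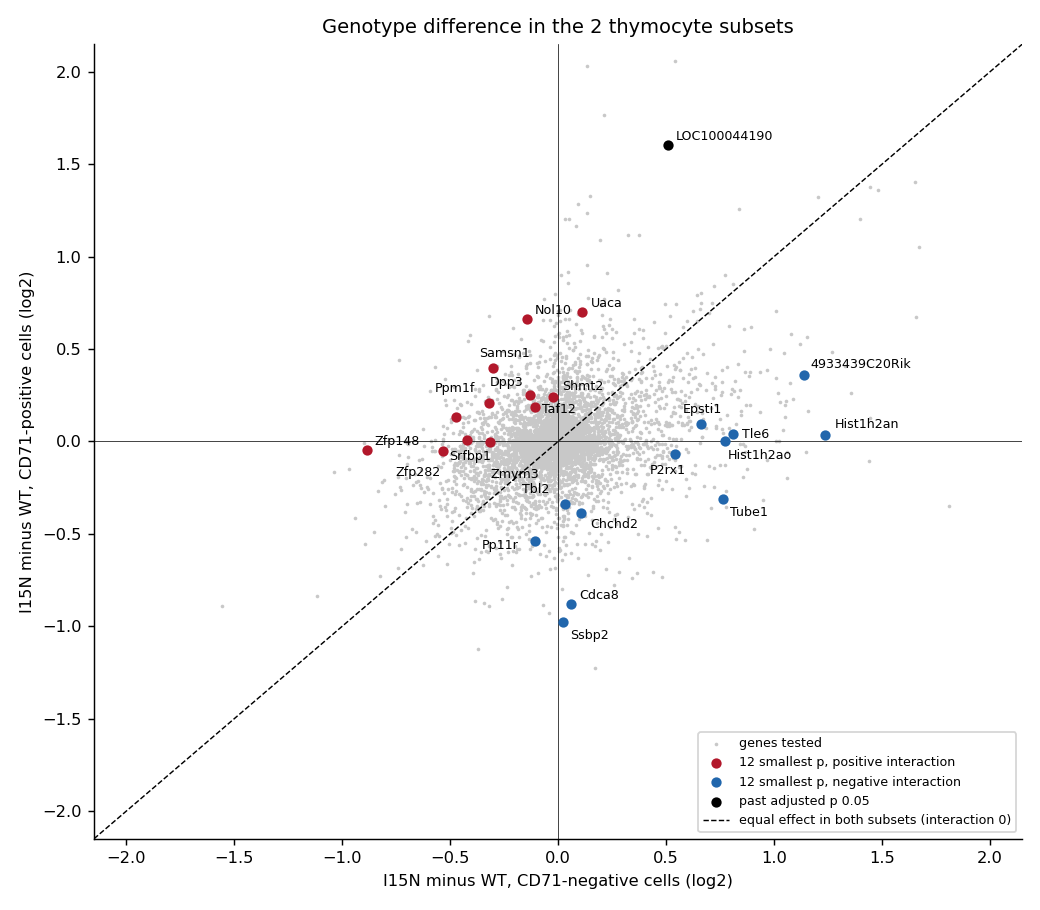
I15N minus WT difference in CD71- cells (x axis) against that in CD71+ cells (y axis), both in log2 units, for the 8247 genes tested (grey). Red and blue points, not all of them named, are the 12 genes with the smallest p and a positive or a negative interaction, black is LOC100044190 at 1.60 in CD71+ cells, and the dashed line marks equal effects.

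The 466 genes at an unadjusted p under 0.05 came from several kinds of pattern. In 210 of them (45.1%) the genotypes differed at an unadjusted p under 0.05 in CD71- cells and not in CD71+ cells, and in 173 (37.1%) the reverse held. The genotype differences passed that threshold in both subsets with opposite signs in 11 genes, and with the same sign in 15. In 57 neither did. Genes that a whole group left undetected made up 1785 of those tested, and 60 of them (3.36%) were at an unadjusted p under 0.05, against 6.28% of the others.

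Among negative interactions, the smallest p belonged to Ssbp2, of a family of single-stranded DNA binding proteins that partner LIM-domain transcription complexes. It read 6.61, 6.60 and 6.65 in I15N CD71+ cells against 7.42, 7.69 and 7.68 in WT CD71+ cells, and 7.79, 8.07 and 7.69 in I15N CD71- cells against 7.95, 7.80 and 7.75 in WT CD71- cells. The I15N CD71+ arrays lay below all others, while in CD71- cells the genotypes overlapped. The fall of 0.98 in I15N CD71+ cells passed the test (limma adjusted p = 0.0072), the difference in CD71- cells was 0.02, and the interaction was -1.0 (interval -1.34 to -0.66, adjusted p = 0.239). Pp11r (now Endou, an endonuclease that cuts RNA at uridines) read 8.83, 8.66 and 8.79 in I15N CD71+ cells against 9.32, 9.21 and 9.37 in WT CD71+ cells. Its arrays did not overlap there, and it fell by 0.54 (limma adjusted p = 0.0072), against a difference of -0.11 in CD71- cells and an interaction of -0.44 (interval -0.62 to -0.25). Chchd2, a mitochondrial protein gene that also acts in the nucleus, and Tbl2, a WD-repeat protein gene, fell in I15N CD71+ cells by 0.39 and 0.34 (limma adjusted p = 0.039 and 0.025), with interactions of -0.50 and -0.37.

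Other negative interactions came from the CD71- side. Epsti1, an interferon-induced gene, read 5.75, 5.70 and 5.78 in I15N CD71+ cells against 5.76, 5.56 and 5.64 in WT CD71+ cells, and 6.57, 6.60 and 6.56 in I15N CD71- cells against 5.85, 5.85 and 6.05 in WT CD71- cells. The I15N CD71- arrays stood above all others, although the deposited detection p called the gene on 1 of those 3 arrays. It rose by 0.66 in I15N CD71- cells (limma adjusted p = 0.0051), and the interaction was -0.57 (interval -0.77 to -0.37, adjusted p = 0.239). Tle6, of the Groucho family of corepressors, read 7.09, 6.76 and 6.95 in I15N CD71- cells against 6.30, 5.89 and 6.18 in WT CD71- cells, and 5.47 to 5.54 on all 6 CD71+ arrays. It rose by 0.81 in I15N CD71- cells (limma adjusted p = 0.016) and its interaction was -0.77 (interval -1.11 to -0.44). P2rx1, an ATP-gated ion channel gene, rose there by 0.54 (limma adjusted p = 0.025) and the listed pseudogene 4933439C20Rik (now Pisd-ps3) by 1.14 (limma adjusted p = 0.0051), with interactions of -0.61 and -0.78. Tube1, the gene of epsilon-tubulin of the centriole, had an interaction of -1.08 (interval -1.53 to -0.62, adjusted p = 0.239), with genotype differences of -0.31 in CD71+ cells and 0.76 in CD71- cells that did not pass.

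Among positive interactions, Nol10, a nucleolar protein gene of ribosome biogenesis, read 7.28, 7.19 and 6.97 in I15N CD71+ cells against 6.71, 6.49 and 6.25 in WT CD71+ cells. In CD71- cells it read 5.67, 5.72 and 5.68 in I15N against 5.82, 5.84 and 5.85 in WT. I15N arrays were the higher in CD71+ cells and the lower in CD71- cells, without overlap in either. It rose by 0.66 in I15N CD71+ cells (limma adjusted p = 0.043), the CD71- difference of -0.14 did not pass, and the interaction was 0.80 (interval 0.46 to 1.15, adjusted p = 0.239). Uaca, whose product binds the apoptosome component Apaf1, rose by 0.70 in I15N CD71+ cells (limma adjusted p = 0.022), with an interaction of 0.59 (interval 0.30 to 0.88). Shmt2, the mitochondrial enzyme that passes a one-carbon unit from serine to folate, rose by 0.24 there (limma adjusted p = 0.034). Its interaction was 0.26, and I15N CD71- cells detected it on 0 arrays, so that group gives only a bound.

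A further set of positive interactions rested on falls in I15N CD71- cells. Zfp148, a zinc finger transcription factor gene, read 6.45, 6.54 and 6.66 in I15N CD71- cells against 7.43, 7.70 and 7.17 in WT CD71- cells, and 6.32 to 6.55 on the 6 CD71+ arrays. The WT CD71- arrays stood above all others. It fell by 0.88 in I15N CD71- cells (limma adjusted p = 0.021), the CD71+ difference was -0.05, and the interaction was 0.84 (interval 0.44 to 1.23, adjusted p = 0.31). Zfp282, another zinc finger gene, fell there by 0.53 (limma adjusted p = 0.016), Srfbp1, whose product binds serum response factor, by 0.42 (limma adjusted p = 0.025), and Zmym3, a chromatin-associated zinc finger gene, by 0.31 (limma adjusted p = 0.0091). Their interactions were 0.48, 0.43 and 0.31, with CD71+ differences between -0.05 and 0.01.

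Genes whose 2 genotype differences pointed in opposite directions, each at an unadjusted p under 0.05, numbered 11 (0.133% of those tested). Samsn1, an adaptor protein gene of blood cells, read 6.68, 6.81 and 6.69 in I15N CD71+ cells against 6.33, 6.21 and 6.44 in WT CD71+ cells, and 7.16, 6.99 and 6.79 in I15N CD71- cells against 7.35, 7.25 and 7.25 in WT CD71- cells. Its arrays did not overlap between genotypes in either subset, and the differences of 0.40 and -0.30 gave an interaction of 0.70 (interval 0.41 to 0.99, limma adjusted p = 0.239). Dpp3, a dipeptidyl peptidase gene, differed by 0.25 in CD71+ cells and -0.13 in CD71- cells. Taf12, a subunit gene of the general transcription factor TFIID, differed by 0.18 and -0.11, and the phosphatase gene Ppm1f by 0.21 and -0.32. Ccrk (now Cdk20, a kinase of the cyclin-dependent family) and Prc1 ran the other way, with -0.27 and -0.54 in CD71+ cells and 0.29 and 0.59 in CD71- cells. Not one of these 12 genotype differences passed the adjusted test.

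**Figure D3:**
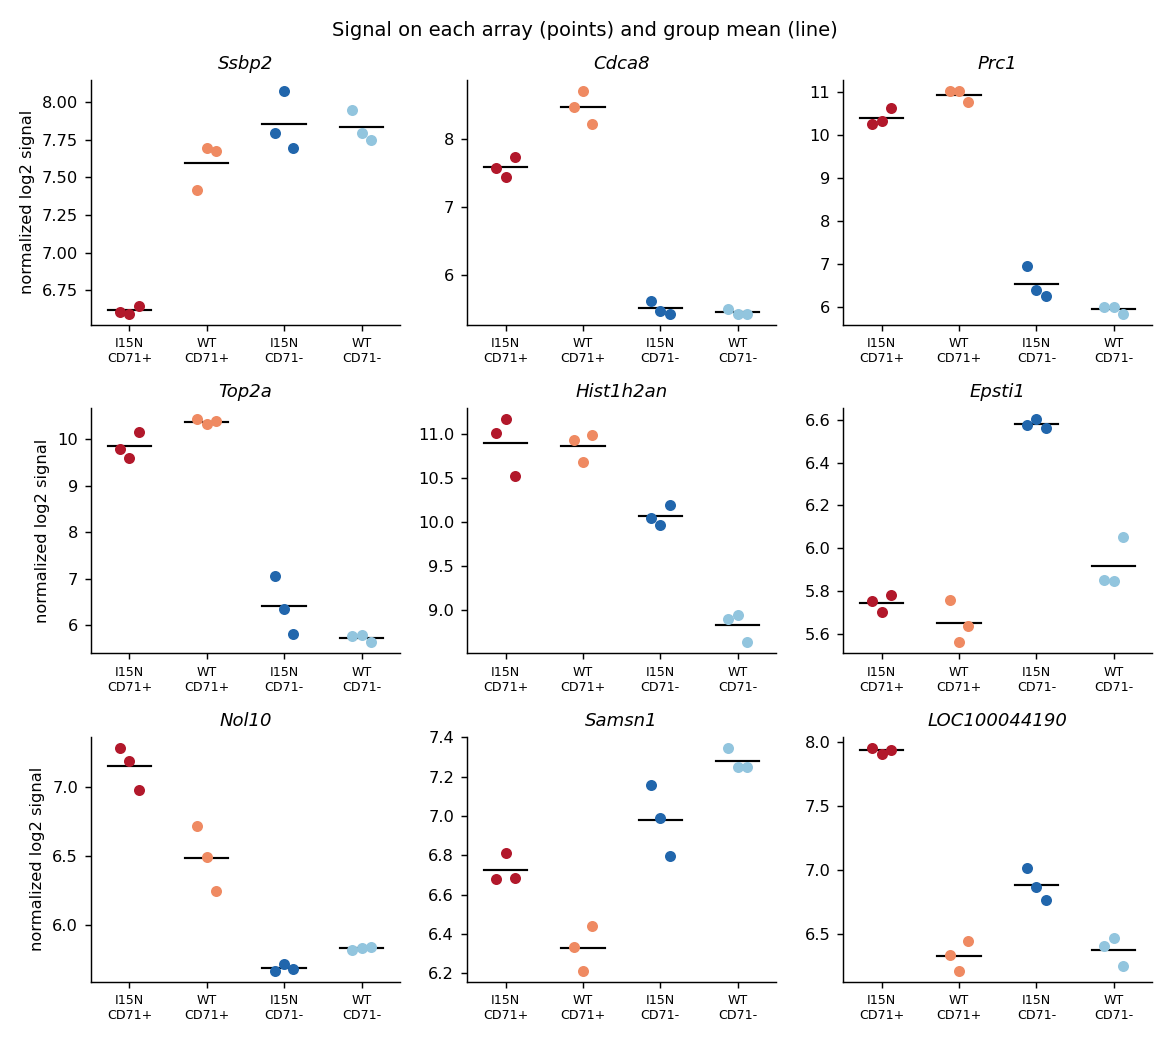
Normalized log2 signal (y axis, a separate scale for each gene) of 9 genes on each of the 12 arrays, by group (x axis), with a line at each group's mean of 3 arrays. LOC100044190 sits between 7.91 and 7.96 on the I15N CD71+ arrays and between 6.21 and 6.45 on the WT CD71+ arrays.

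Gene lists for 39 processes, chosen with earlier results of these data known, held 992 tested genes, of which 99 (9.98%) were at an unadjusted p under 0.05 for the interaction, beside 5.65% of all genes. No list member passed the adjusted test. Lists are described by their counts and medians beside those of all genes, whose median was 0.0015. Over 38 lists with at least 3 tested genes, medians ran from -0.27 for spindle, kinetochore and mitotic entry genes to 0.25 for chaperones.

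**Figure D4:**
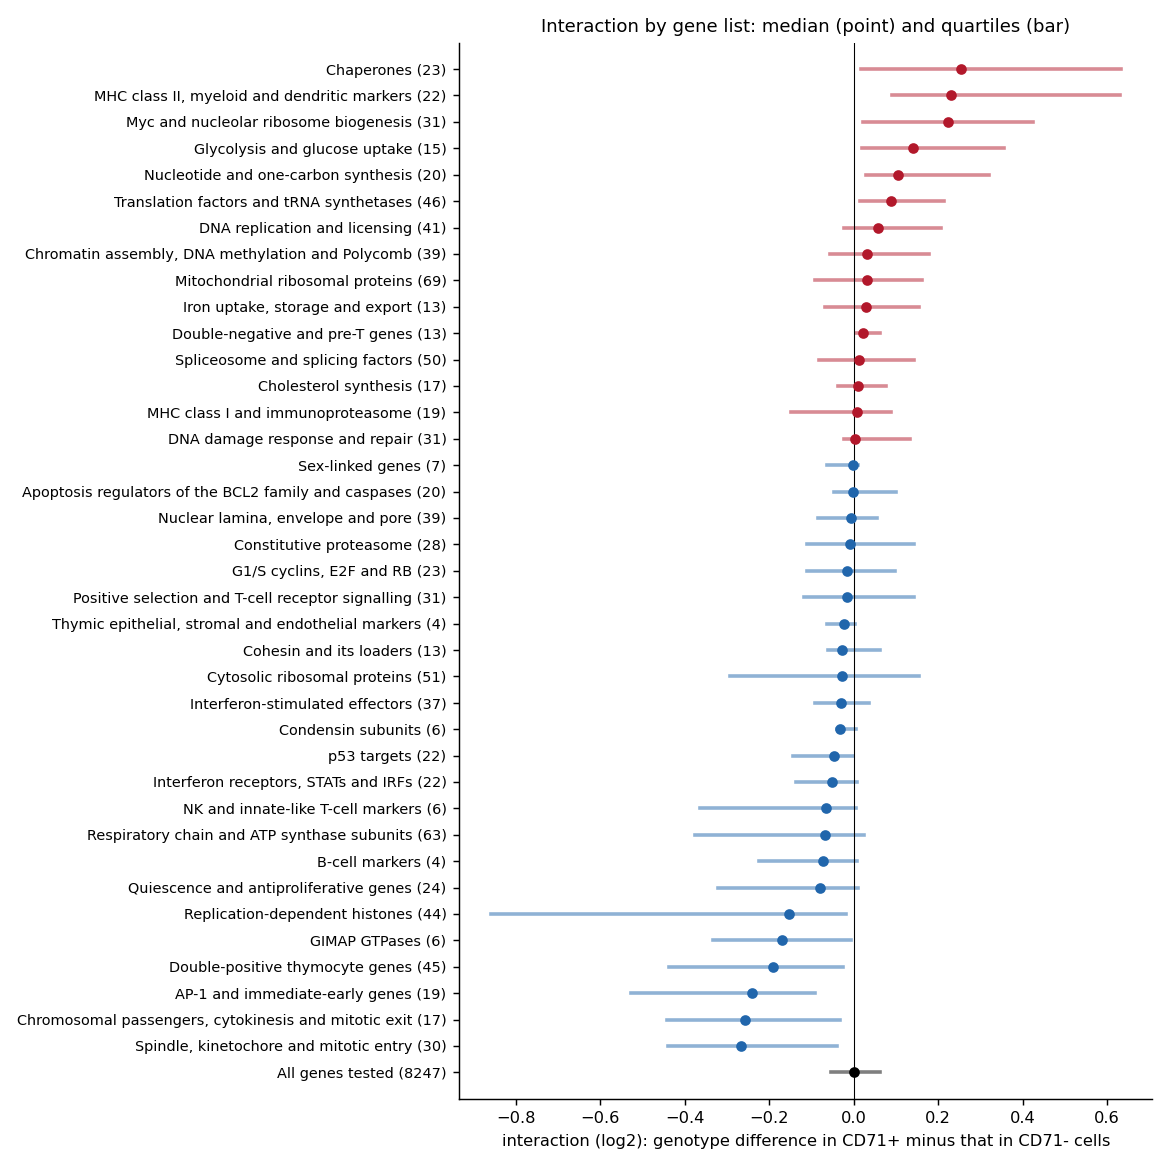
Interaction (x axis, log2) of each gene list with at least 3 tested members, as the median (point) and the quartiles (bar), with the number of tested members in parentheses. Medians run from 0.25 for chaperones at the top to -0.27 for spindle, kinetochore and mitotic entry genes, beside 0.0015 for all genes tested at the bottom.

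Genes of mitosis had negative interactions. The spindle, kinetochore and mitotic entry list held 30 tested genes of 39 on the array, with 28 below 0, 6 at an unadjusted p under 0.05 and negative (20% of the list, beside 2.66% of all genes) and 0 positive. Its median interaction was -0.27, beside a median I15N minus WT difference of -0.17 in CD71+ cells and 0.03 in CD71- cells. Seen the other way, the median CD71+ minus CD71- difference was 1.09 in I15N and 1.53 in WT cells. The list of chromosomal passengers, cytokinesis and mitotic exit had 15 of 17 tested genes below 0 and a median of -0.26. At an unadjusted p under 0.05, 5 were negative (29.4%, beside 2.66% of all genes) and 1 positive. The median spindle value per array, as the deviation of members from their 12-array means, was 0.45, 0.44 and 0.46 in I15N CD71+ cells against 0.86, 0.77 and 0.55 in WT CD71+ cells. In CD71- cells it was -0.62, -0.64 and -0.66 in I15N against -0.68, -0.67 and -0.67 in WT. For the spindle list, I15N arrays were lower in CD71+ cells without overlap and slightly higher in CD71- cells. The passenger list's median was 0.41, 0.54 and 0.685 in I15N CD71+ cells against 1.10, 0.85 and 0.678 in WT CD71+ cells. In CD71- cells it was -0.69, -0.76 and -0.78 in I15N against -0.72, -0.70 and -0.69 in WT. The genotypes overlapped in both subsets for the passenger list. With cyclic loess in place of quantile normalization the spindle list had 1 negative member at that threshold, with normexp or array weights 11, and without the third WT CD71+ array 13. Without that array the passenger list had 8. When 1 array was left out the medians ran from -0.36 to -0.16 for the spindle list, the weakest without the second WT CD71+ array, and from -0.32 to -0.14 for the passenger list, the weakest without the first WT CD71+ array.

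Cdca8 encodes borealin, a subunit of the chromosomal passenger complex that corrects kinetochore attachments. It read 7.57, 7.44 and 7.73 in I15N CD71+ cells against 8.47, 8.70 and 8.21 in WT CD71+ cells, and 5.63, 5.48 and 5.44 in I15N CD71- cells against 5.50, 5.44 and 5.44 in WT CD71- cells. The CD71+ arrays did not overlap between genotypes, and the CD71- arrays lay near the floor of the scale. It fell by 0.88 in I15N CD71+ cells (limma adjusted p = 0.022), the CD71- difference was 0.06, and the interaction was -0.94 (interval -1.31 to -0.57, adjusted p = 0.239).

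Prc1, a microtubule bundler needed for cytokinesis, read 10.27, 10.33 and 10.63 in I15N CD71+ cells against 11.04, 11.03 and 10.77 in WT CD71+ cells. In CD71- cells it read 6.96, 6.40 and 6.26 in I15N against 6.01, 5.99 and 5.85 in WT. I15N arrays were lower in CD71+ cells and higher in CD71- cells without overlap in either, and the interaction was -1.12 (interval -1.68 to -0.57, limma adjusted p = 0.329). Top2a, the topoisomerase that untangles sister chromatids, read 9.79, 9.60 and 10.16 in I15N CD71+ cells against 10.43, 10.32 and 10.40 in WT CD71+ cells, and 7.06, 6.36 and 5.82 in I15N CD71- cells against 5.76, 5.78 and 5.64 in WT CD71- cells. The I15N CD71- arrays spread over more than a log2 unit, and the interval of its interaction of -1.22 ran from -2.07 to -0.37 (limma adjusted p = 0.613). Cenpa, the histone variant of centromeres, had an interaction of -1.26 (interval -1.97 to -0.55, adjusted p = 0.399), with a difference of -0.20 in CD71+ cells and 1.06 in CD71- cells. Kif4, a chromosome-bound kinesin, and Plk1, the mitotic kinase, had interactions of -0.42 and -0.31. Kif4 was detected on 0 WT CD71- arrays. In all, 12 of the 30 spindle genes were undetected in a whole group, which then gives only a bound. Fzr1, an activator of the anaphase-promoting complex, had -0.44, and Anapc4, a subunit of it, 0.26.

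Promoters of Prc1, Top2a and Cdca8 are shown because mitotic genes had interactions of mostly one sign and many share a known promoter layout, with CCAAT boxes upstream of a cell cycle homology region of the letters TTTGAA. Each stretch is the 100 bases before the annotated start (RefSeq, GRCm38.p6), on the gene's strand, 5′ to 3′, with CCAAT or ATTGG and TTTGAA or TTCAAA in capitals. Neither motif overlaps the other in these stretches. Prc1, shown at the second of its 2 annotated starts, lies at chr7:80294376-80294475 (+), Top2a at chr11:99024190-99024289 (-) and Cdca8 at chr4:124936918-124937017 (-).
Prc1: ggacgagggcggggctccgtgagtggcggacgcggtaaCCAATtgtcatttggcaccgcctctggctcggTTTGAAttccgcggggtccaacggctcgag
Top2a: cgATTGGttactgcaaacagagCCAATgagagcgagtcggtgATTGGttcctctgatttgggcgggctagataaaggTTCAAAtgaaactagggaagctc
Cdca8: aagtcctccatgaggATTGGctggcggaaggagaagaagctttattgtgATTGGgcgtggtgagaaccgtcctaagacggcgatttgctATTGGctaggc

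In Prc1 a CCAAT begins 62 bases and a TTTGAA 30 bases before the start, and in Top2a the CCAAT letters begin 98, 78 and 58 bases and a TTCAAA 23 bases before it. Cdca8 has ATTGG beginning 85, 51 and 11 bases before the start, and its TTTGAA begins 14 bases after it. Of the 47 tested genes of both mitotic lists, 39 (83%) have a promoter entry of 250 bases before to 50 after the start. Of these, 23 (59.0%) held TTTGAA on either strand, 27 (69.2%) CCAAT and 19 (48.7%) both. Of all 27025 genes with a promoter entry, 20.2% held TTTGAA, 41.1% CCAAT and 7.97% both. A match of letters is a description of the window and not a site.

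Replication-dependent histones, made in S phase to package new DNA, had negative interactions that came from CD71- cells. Of 44 tested genes, 37 were below 0, and the median was -0.15. At an unadjusted p under 0.05, 9 were negative (20.5%, beside 2.66% of all genes) and 0 positive. The median I15N minus WT difference was 0.01 in CD71+ cells and 0.20 in CD71- cells, where 15 members were higher at an unadjusted p under 0.05 (beside 4.91% of all genes) and 0 lower. Hist1h2an (now H2ac22) read 11.01, 11.17 and 10.52 in I15N CD71+ cells against 10.94, 10.68 and 10.98 in WT CD71+ cells, and 10.05, 9.96 and 10.19 in I15N CD71- cells against 8.90, 8.95 and 8.63 in WT CD71- cells. The genotypes overlapped in CD71+ cells and lay more than a log2 unit apart in CD71- cells. It rose by 1.24 in I15N CD71- cells (limma adjusted p = 0.016), and its interaction was -1.20 (interval -1.73 to -0.68, adjusted p = 0.239). Hist1h2ao (now H2ac23) and Hist1h2ah (now H2ac12) rose there by 0.77 and 1.06 (limma adjusted p = 0.014 and 0.04), with interactions of -0.77 and -1.12, and Hist2h2ac (now H2ac20) had -0.87. Hist1h2ao and Hist2h2ac were among the 6 brightest symbols of every CD71+ array, where quantile normalization sets equal ranks to one value and compresses differences. The list's median was between -0.23 and -0.061 when 1 array was left out, the weakest without the first WT CD71+ array. These H2A genes are near-identical copies, so their signals may not be independent.

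Other lists of the cell cycle had smaller shifts. DNA replication and licensing, with 41 tested genes, had a median of 0.06 (0.0017 without the third WT CD71+ array) and 1 member in each direction at an unadjusted p under 0.05. G1/S cyclins, E2F and RB had a median of -0.02, with E2f1, an activating E2F, at 0.30 (interval 0.14 to 0.45, limma adjusted p = 0.338) and E2f2, an E2F that restrains T-cell proliferation in mice, at -0.56 (interval -0.87 to -0.25, adjusted p = 0.384). E2f1 rose by 0.50 in I15N CD71+ cells (limma adjusted p = 0.0067) and differed by 0.21 in CD71- cells. Mxd3, a Max-binding repressor, fell by 0.27 in I15N CD71+ cells (limma adjusted p = 0.025), with 0 CD71- arrays detecting it in either genotype and an interaction of -0.25. The 6 condensin subunits had a median of -0.03, which took either sign when 1 array was left out (-0.15 to 0.031), with 0 members at an unadjusted p under 0.05. Their interactions ran from -0.31 for Ncapd3 of condensin II to 0.08 for Ncaph2.

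Some lists of growth genes ran the other way. Others did not: cytosolic ribosomal proteins had a median of -0.03, and respiratory chain subunits, described below, one of -0.07. Myc and nucleolar ribosome biogenesis, the step that builds ribosomes for growing cells, had a median interaction of 0.22 over 31 tested genes, 24 of them above 0. At an unadjusted p under 0.05, 9 were positive (29.0% of the list, beside 3.00% of all genes) and 1 negative. The median I15N minus WT difference was 0.20 in CD71+ cells and 0.01 in CD71- cells. The list's median per array was 0.36, 0.30 and 0.17 in I15N CD71+ cells against 0.03, 0.10 and 0.05 in WT CD71+ cells, and between -0.26 and -0.17 on all CD71- arrays. I15N arrays were the higher in CD71+ cells without overlap. Besides Nol10, Ebna1bp2, a nucleolar assembly factor of the large ribosomal subunit, rose by 0.49 in I15N CD71+ cells (limma adjusted p = 0.025), with an interaction of 0.43 (interval 0.21 to 0.64, adjusted p = 0.338). Rrp12, an export factor of ribosomal subunits, had 0.49. Emg1, a methyltransferase of ribosomal RNA, was the negative member at -1.02 (interval -1.62 to -0.42, adjusted p = 0.441), with 0.00 in CD71+ cells and 1.02 in CD71- cells. With cyclic loess, 5 members of the list were positive at that threshold, and with array weights 15.

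Chaperones, which fold new proteins, had the highest median, 0.25, with 18 of 23 tested genes above 0. At an unadjusted p under 0.05, 4 were positive (17.4%, beside 3.00% of all genes) and 0 negative. The median I15N minus WT difference was 0.03 in CD71+ cells and -0.02 in CD71- cells. The list's median per array was 0.47, 0.30 and 0.39 in I15N CD71+ cells against 0.07, 0.36 and 0.03 in WT CD71+ cells. In CD71- cells it was -0.27, -0.51 and -0.30 in I15N against -0.10, -0.03 and -0.34 in WT. The genotypes overlapped in both subsets. Hspa9, the mitochondrial Hsp70, read 9.98, 9.73 and 9.91 in I15N CD71+ cells against 9.47, 9.69 and 9.73 in WT CD71+ cells, and 8.04, 7.84 and 8.06 in I15N CD71- cells against 8.24, 8.24 and 8.62 in WT CD71- cells. I15N arrays were at or above the WT arrays in CD71+ cells and below them in CD71- cells, and the interaction was 0.63 (interval 0.24 to 1.02, limma adjusted p = 0.505). Trap1, the mitochondrial Hsp90, had 0.64 and Hspd1, the mitochondrial Hsp60, 0.73 with an interval of 0.06 to 1.40. The number of chaperones at that threshold was 2 without the first I15N CD71+, the third WT CD71+, or the first or the second WT CD71- array, and 9 with array weights. Nucleotide and one-carbon synthesis had a median of 0.11 (0.054 without the third WT CD71+ array and 0.17 without the second), with 16 of 20 genes above 0. At that threshold 4 were positive (20%, beside 3.00% of all genes): Shmt2, the dUTPase gene Dut at 0.54, the folate enzyme gene Mthfd1 at 0.83 and the CTP synthase gene Ctps at 0.31. Their number was 1 with cyclic loess and 7 without the second WT CD71+ array. Translation factors and tRNA synthetases had a median of 0.09 (0.030 without the first WT CD71+ array and 0.17 without the second). Of 46, 0 were negative and 5 positive (10.9%, beside 3.00% of all genes), among them the initiation factor gene Eif2s2 at 0.17. When 1 array was left out, 2 to 9 were positive. Respiratory chain and ATP synthase subunits had a median of -0.07 (-0.027 without the first WT CD71+ array and -0.13 without the third). Of 63, 6 were negative (9.52%, beside 2.66% of all genes) and 0 positive, with 3 to 8 negative when 1 array was left out. Ndufa2, a complex I subunit gene, rose by 1.04 in I15N CD71- cells (limma adjusted p = 0.039) against 0.06 in CD71+ cells, and Atp5j2, of ATP synthase, had an interaction of -0.44.

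**Figure D5:**
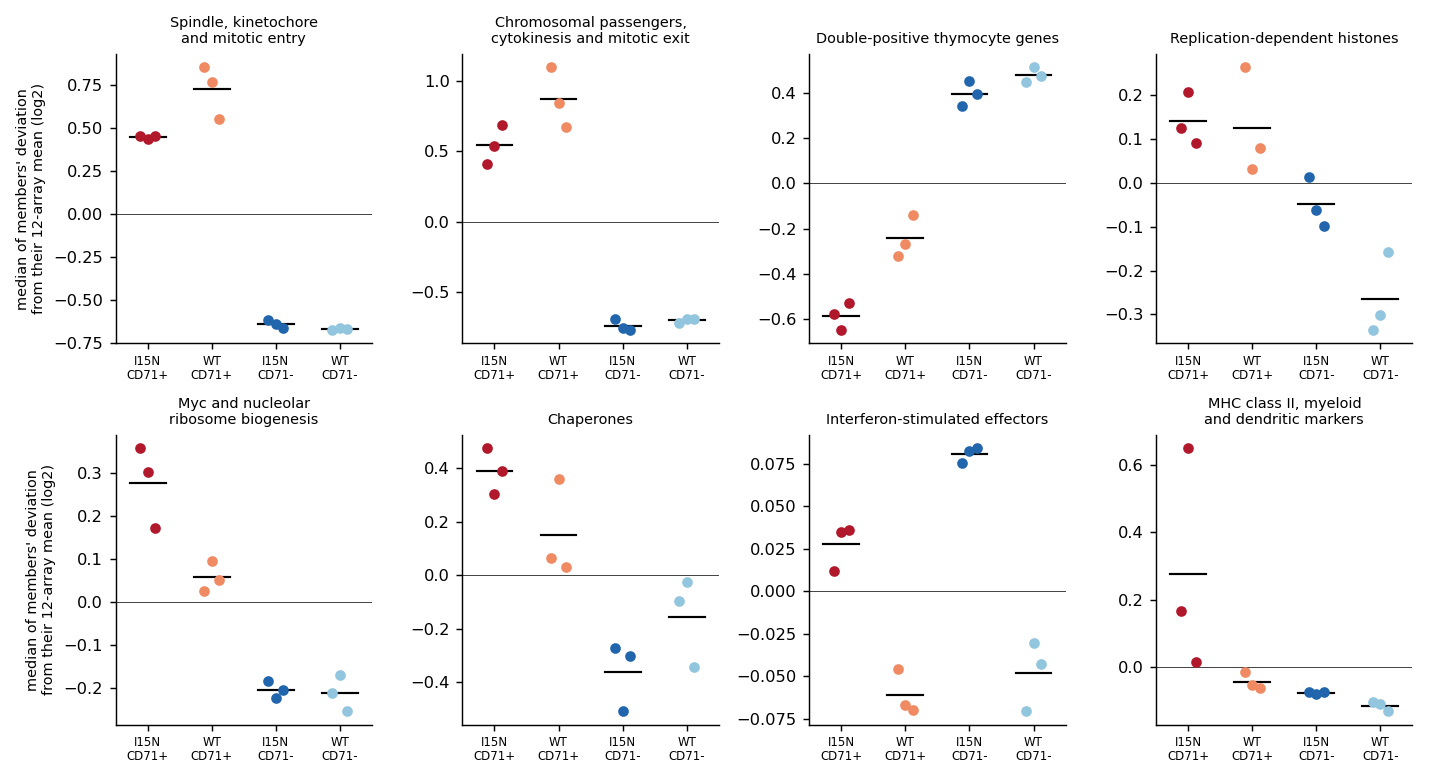
Median over list members of the deviation from each member's 12-array mean (y axis, log2, a separate scale for each list) on each array, by group (x axis), with a line at the mean of 3 arrays, for 8 lists. The second I15N CD71+ array stands at 0.65 in the myeloid list, and the other I15N CD71+ arrays at 0.17 and 0.01.

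Genes of the double-positive thymocyte stage were lower in I15N cells chiefly in the CD71+ subset. The list had 37 of 45 tested genes below 0 and a median interaction of -0.19, with a median I15N minus WT difference of -0.30 in CD71+ cells and -0.07 in CD71- cells. At an unadjusted p under 0.05, 17 members were lower in I15N CD71+ cells (beside 3.44% of all genes) and 5 in I15N CD71- cells (beside 5.51%). At that threshold 4 members had a negative interaction (8.89%, beside 2.66% of all genes) and 0 a positive one. The list's median per array was -0.58, -0.65 and -0.53 in I15N CD71+ cells against -0.32, -0.27 and -0.14 in WT CD71+ cells, and 0.34, 0.45 and 0.39 in I15N CD71- cells against 0.45, 0.51 and 0.47 in WT CD71- cells. The genotypes did not overlap in CD71+ cells. Aqp11, an aquaporin gene, read 7.54, 7.72 and 7.77 in I15N CD71+ cells against 7.96, 8.05 and 8.16 in WT CD71+ cells, and 8.90, 9.10 and 8.94 in I15N CD71- cells against 8.80, 8.93 and 8.50 in WT CD71- cells. I15N arrays were lower without overlap in CD71+ cells, and the genotypes overlapped in CD71- cells. Its interaction was -0.62 (interval -0.98 to -0.26, limma adjusted p = 0.425). Lck, the kinase of CD4 and CD8, had an interaction of -0.38 with an interval of -0.70 to -0.06. With cyclic loess 1 member was negative at that threshold, and with array weights 11. The number was 2 without the second I15N CD71+ array, 7 without the third I15N CD71+ or the third WT CD71- array, and 8 without the third I15N CD71- array. The median was -0.29 without the third I15N CD71+ array and -0.13 without the third WT CD71+ array. The 19 AP-1 and immediate-early genes had a median of -0.24 and the 6 GIMAP GTPases, of lymphocyte survival, one of -0.17, with 0 members of either at an unadjusted p under 0.05. Without the third WT CD71+ array the GIMAP median was 0.02. The AP-1 median was -0.036 without the first I15N CD71- array, -0.39 without the first I15N CD71+ array and -0.015 with array weights. The first I15N CD71- array held the AP-1 list's highest value, 0.83, against -0.02 to 0.28 on the other CD71- arrays.

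Interferon-stimulated effectors were higher in I15N cells in both subsets, and no member passed the adjusted test of a difference between them. Of 37 tested genes, 22 were higher in I15N at an unadjusted p under 0.05 in CD71+ cells (beside 5.10% of all genes), 22 in CD71- cells, and 0 were lower in either. The median difference was 0.10 in CD71+ cells and 0.14 in CD71- cells. The median interaction was -0.03, with 5 negative and 2 positive at an unadjusted p under 0.05 (18.9% of the list, beside 5.65% of all genes). The negative ones numbered 2 or 3 without the first or the third I15N CD71+ array, the first or the third WT CD71+ array, the second I15N CD71- array, or the first or the third WT CD71- array. Besides Epsti1, Rsad2, the antiviral enzyme viperin, read 5.95, 6.13 and 6.16 in I15N CD71+ cells against 5.51, 5.47 and 5.51 in WT CD71+ cells, and 6.28, 6.74 and 6.71 in I15N CD71- cells against 5.46, 5.51 and 5.53 in WT CD71- cells. I15N arrays were higher in both subsets without overlap, and Rsad2 rose by 1.08 in CD71- cells (limma adjusted p = 0.0054), with an interaction of -0.50 (interval -0.84 to -0.15, adjusted p = 0.613). Ifi27, another interferon-induced gene, rose by 1.66 in I15N CD71- cells (limma adjusted p = 0.039), with an interaction of -0.98 (interval -1.82 to -0.14). Gbp3, a guanylate-binding protein gene, rose by 0.33 in I15N CD71+ cells (limma adjusted p = 0.022), with an interaction of 0.20.

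Markers of MHC class II, myeloid and dendritic cells had a median interaction of 0.23, with 20 of 22 tested genes of 40 above 0. At an unadjusted p under 0.05, 2 were positive (9.09%, beside 3.00% of all genes). Of the 40, 19 were detected on all 3 I15N CD71+ arrays, 12 on all 3 WT CD71+, 11 on all 3 I15N CD71- and 4 on all 3 WT CD71- arrays. Members could enter the test through the group where they were high, so the count above 0 gives no separate support. The summed signal of the 40 markers was 2352 to 4548 on the I15N CD71+ arrays, 2062 to 2370 on the WT CD71+ arrays, 2030 to 2120 on the I15N CD71- arrays and 1850 to 1921 on the WT CD71- arrays (linear normalized scale). The second I15N CD71+ array gave the highest sum. Lyz (now Lyz1), a lysozyme gene, read 7.21, 8.69 and 7.13 in I15N CD71+ cells against 6.0, 5.98 and 5.75 in WT CD71+ cells, and 5.62, 5.70 and 5.72 in I15N CD71- cells against 5.43, 5.45 and 5.51 in WT CD71- cells. I15N arrays were higher without overlap in both subsets, and the interaction of 1.55 (interval 0.47 to 2.64, limma adjusted p = 0.615) passed at 0.0416 without the second I15N CD71+ array. Lyz2, its macrophage counterpart, had 0.27, and H2-Aa, a chain of MHC class II, 0.60 with an interval of -0.08 to 1.28. Lyz2 was detected on 1 I15N and 0 WT CD71- arrays, and H2-Aa on 2 and 0. In all, 12 of the 22 tested markers were undetected in a whole group, which then gives only a bound. Without the second I15N CD71+ array the list's median was 0.09. Without the third I15N CD71+ array 13 members were positive at an unadjusted p under 0.05, against 1 to 4 without any other array. Cd74 and H2-Ab1 averaged 7.95 and 7.82 in I15N CD71+ cells against 6.62 and 6.59 in WT CD71+ cells. Their CD71- means were 5.60 and 5.56 in I15N against 5.45 and 5.43 in WT. Itgax was detected on 0 arrays and the macrophage receptor gene Csf1r on 2 of 12. The part of these cells in the other interactions was not tested.

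The remaining lists had medians between -0.08 and 0.14. Among them, 24 quiescence and antiproliferative genes stood at -0.08, 51 cytosolic ribosomal protein genes at -0.03, 22 p53 targets at -0.05 and 31 DNA damage and repair genes at 0.00, with at most 2 members in either direction at an unadjusted p under 0.05. Positive selection and T-cell receptor signalling, with 31 tested genes, had a median of -0.02, with 3 positive and 1 negative. The glycolysis list stood at 0.14, with 1 negative and 0 positive of 15. Its median was 0.058 without the first WT CD71- array, 0.30 without the third, and -0.018 with array brightness as a covariate. B-cell and NK-cell markers had 4 and 6 tested genes and 0 at that threshold, and the erythroid and platelet list had 0 tested genes of 13. Of 235 tested genes within 20 Mb of Ncaph2 on chromosome 15 (89355719 to 89372850, GRCm38.p6), 21 (8.94%) were at an unadjusted p under 0.05, beside 5.65% of all genes.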

How the data were processed

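RNA of sorted thymocytes was amplified, biotin-labelled and hybridised to 1-colour arrays, per the labels' protocols. Per the file headers, the deposited non-normalized table holds, on 12 arrays, the linear intensity of 18138 gene symbols. A detection p-value stands beside each deposited intensity. Probes are not named, and the sources used here do not tell how those of 1 gene were combined. A second deposited table holds the authors' processed intensity of 18132 symbols, and the submitters' processing notes give RMA. It ranks genes as the first does (rank correlation 1), and it served as an alternative. Its array medians of 77.2 to 78.7 and highest values of 9389 to 12817 show a scale that is linear and not centred.

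Signals were background corrected from the detection p-values, given an offset of 16, quantile-normalized and log2-transformed with neqc (limma 3.58.1, R 4.3.3). Differences of dim genes are understated by the offset. A symbol was tested where 3 or more arrays had it at a detection p under 0.05. One model of 4 group means was fitted with lmFit and eBayes, without trend, to all 12 arrays, and p-values were two-sided and adjusted by Benjamini and Hochberg over all 8247 symbols within a contrast. A group with 0 detecting arrays gives only a bound. The fit was tested on simulated data. The number of arrays limits the precision.

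The comparison, the 39 lists and the named genes were chosen with earlier results of these data known. The rule names Ncaph2, Tfrc, Cd4 and Cd8b1, the 12 smallest p in each direction among symbols matched to an annotation, the 4 smallest p of each list with 3 or more tested members, and the 6 smallest p among genes with opposite genotype differences. Not every gene that the rule takes is reported here. Of all symbols, 14309 matched RefSeq annotation of GRCm38.p6 by name and 2885 by a synonym, and 944 had no match. Alternatives changed the background step, normalization, filter, variance model, array weights, replicate block, array brightness as a covariate and each array left out. No pair of arrays held identical values.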

Additional observations from a re-analysis of the deposited data

Results flagged for a closer look

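The interaction of LOC100044190, 1.09, stands out because the test of the difference between the genotype effects in CD71+ and CD71- cells passed the adjusted threshold. It was the only one of 8247 genes to do so with the settings of the report. I15N was above WT by 1.60 in CD71+ cells and by 0.51 in CD71- cells.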

How the results depend on the processing

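The count of 1 gene past the adjusted interaction test was 0 with normexp, cyclic loess, the authors' processed values, no filter, the trended robust variance model, the replicate block or array brightness as a covariate, and 45 with array weights. It was 0 to 5 when 1 array was left out: LOC100044190 passed in 4 of those 12 fits, and in 2 of the 9 other alternatives (detection on all 3 arrays of a group, and array weights). Without the third WT CD71- array 5 genes passed, without the second WT CD71+ array 3, and without the second I15N CD71+ array Lyz alone. The 466 genes at an unadjusted p under 0.05 became 932 of 18138 with no filter and 1535 with array weights, and 384 to 712 without 1 array, the last without the third WT CD71- array. The 35 genes that differed between genotypes in CD71+ cells numbered 16 with normexp, 6 with cyclic loess, 22 with the authors' values, 16 with no filter, 207 with array weights, 23 with the replicate block and 14 to 61 without 1 array. The 35 genes in CD71- cells numbered 8 with cyclic loess, 55 with the authors' values, 20 with no filter, 53 with the trended model, 461 with array weights, 12 with the brightness covariate and 14 to 123 without 1 array. Same-numbered arrays of different groups correlated, as deviations from their group means, at over 0.1 in 11 of 18 pairs and under -0.1 in 6. Not every pair was over 0.1, so the numbers were not taken as pairs. Only CD71+ and CD71- arrays of the same genotype could share an animal. Those pairs correlated at 0.51, -0.30 and 0.50 in I15N and at -0.41, 0.39 and 0.26 in WT. Deviations from a mean of 3 arrays are tied to each other, so the check cannot settle whether the subsets were paired. The replicate block joined same-numbered arrays of both genotypes, and a block of animals within a genotype was not fitted. The replicate block could move no list median, because each replicate number occurs in every group. Its 0 interaction calls compare with 498 genes at an unadjusted p under 0.05.

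Over the 21 alternatives 20 of 38 list medians kept their sign and 18 did not. Those of the spindle, passenger, double-positive, histone, Myc, chaperone, myeloid and interferon effector lists kept it. GIMAP reached 0.024 and glycolysis -0.018. Histones had -0.32 with normexp, -0.29 with the authors' values and -0.23 to -0.061 without 1 array. Interferon effectors had -0.060 with either of those settings and -0.053 to -0.010 without 1 array. Myc and ribosome biogenesis had 0.14 with cyclic loess. The spindle list had -0.17 with array weights and -0.36 to -0.16 without 1 array. Double-positive genes had -0.26 when detection on all 3 arrays of a group was asked for, -0.26 with array weights and -0.29 to -0.13 without 1 array. Of 63 genes tracked, 60 kept their direction in all 21 alternatives. The replicate block, the trended variance model and the lack of a filter could change no gene value or list median. The stricter filter could change no gene value. These settings therefore add nothing to the counts of kept signs. Ncaph2 turned to -0.010 with the authors' values and -0.15 with the brightness covariate, and ran from -0.027 to 0.23 without 1 array. Without 1 array Tfrc ran from -0.10 to 0.39 and Cd4 from -0.36 to 0.010. At an unadjusted p under 0.05, over the 21 alternatives, negative members numbered 1 to 13 for spindle genes, 3 to 8 for passengers, 1 to 11 for double-positive genes, 8 to 15 for histones and 2 to 7 for interferon effectors, and positive members 5 to 15 for Myc, 2 to 9 for chaperones and 1 to 13 for myeloid markers. The causes were not tested. Dim genes and groups of 3 arrays limit what the interaction test can show.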
